A study of Mus musculus with 232 samples.

Results

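Within the let-7-transfected cells of this single-cell experiment, the cells that held Nanog transcripts were compared with the cells that held almost none. The cells were chosen by their Nanog count alone. Where a cell had been sequenced in more than 1 run its counts were added up. Cells with a Nanog count of at least 10 were called Nanog-high, and cells below 10 were called Nanog-low. The let-7 cells made up 55 of the 232 runs and 48 of the 182 wells of the series. In 3 pairs of let-7 wells with neighbouring numbers, the counts differed by no more than runs of a single cell did, so each pair was counted as 1 cell by its mean. This left 45 let-7 cells, 27 Nanog-high and 18 Nanog-low. All let-7 cells were Dgcr8-/- mouse embryonic stem cells (ESCs), which lack a protein needed to make most miRNAs, and they were captured 24 h after transfection with a let-7 mimic. The other conditions were mock-transfected Dgcr8-/- cells without a mimic (60 cells), Dgcr8-/- cells given a miR-294 mimic (57 cells) and wild-type ESCs (16 cells). All were grown in serum with LIF and 2i, the MEK inhibitor PD0325901 and the GSK3 inhibitor CHIR99021, which hold ESCs in the naive state. One microfluidic C1 circuit was used per condition, and transfected cells had been kept by the study only where the targets of the mimic were reduced. The let-7 cells therefore form 1 sample, and the cells in it are not replicates of a condition. No test was run between the groups, no p-value is given, and every difference below is a description of these 45 cells. Intervals cover counting error only.

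Nanog is a homeodomain transcription factor that holds ESCs in self-renewal together with Pou5f1 (Oct4) and Sox2. Its level is known to vary from cell to cell, and cells with little Nanog can still express Pou5f1. The let-7 miRNAs are made as ESCs differentiate, repress genes such as Lin28a and Hmga2, and are kept low in pluripotent cells by Lin28a. The ESC cell cycle has a short G1 phase.

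The sources name the mimic in different ways, as let-7i in the sample titles, let-7b in the series description and let-7c in the study. The mature sequences are shown because the seed, bases 2 to 8 in capitals, sets which transcripts a miRNA binds, and it was the same in all of them. The sequences are those of RefSeq for mouse GRCm38.p6, written 5′ to 3′.
let-7b-5p: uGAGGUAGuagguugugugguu
let-7c-5p: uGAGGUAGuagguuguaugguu
let-7i-5p: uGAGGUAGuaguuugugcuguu
The match to this seed in a transcript reads CTACCTC. It was found in the longest annotated 3′ UTR of 1252 of the 10312 compared genes with a UTR (12.1%), and in 123 of 167 listed let-7 targets with one (73.7%). The 1078 bases of the longest Nanog 3′ UTR did not hold these letters. Single matches lay in the 3′ UTRs of Sall4, Esrrb and Fgf4, all pluripotency genes whose levels are described below. Other genes described below also held a single match, namely Gdf3, Slc2a3, Tcf7l1, Ccnf, Cenpa, Ggta1, Tmc6 and Sesn3. The matches of Sall4, Esrrb and Fgf4 are printed in capitals with 10 bases on each side.
Sall4, match at chr2:168748941-168748947, minus strand: tttaatttatCTACCTCaattatcttt
Esrrb, match at chr12:86519682-86519688, plus strand: cttcctgcccCTACCTCagccagccgg
Fgf4, match at chr7:144863874-144863880, plus strand: ctatccccatCTACCTCagagttcctg
The gene that split the cells, Nanog (ENSMUSG00000012396), lies on the plus strand at chr6:122707489-122714633 in GRCm38. Its promoter is shown because it holds a composite Sox and Oct motif, CATTGT followed by any base and then ATGCAAA, searched on both strands. Among 27025 genes with a RefSeq promoter of 300 bases, 250 before the start and 50 after it, 1 held this motif, and it was Nanog. Only these exact letters were searched. Sites that differ from them or lie outside the 300 bases were not counted, so the search does not show the motif to be particular to Nanog. The Oct letters ATGCAAA alone were in the promoters of 5.24% of all genes and of 4.09% of the 8408 compared genes with a promoter. They were in 18 of 652 promoters (2.76%) of the genes called below as higher in Nanog-high cells, and in 13 of 297 (4.38%) of those called lower. The Nanog promoter follows on its plus strand with the motif in capitals.
Nanog promoter, chr6:122707239-122707538: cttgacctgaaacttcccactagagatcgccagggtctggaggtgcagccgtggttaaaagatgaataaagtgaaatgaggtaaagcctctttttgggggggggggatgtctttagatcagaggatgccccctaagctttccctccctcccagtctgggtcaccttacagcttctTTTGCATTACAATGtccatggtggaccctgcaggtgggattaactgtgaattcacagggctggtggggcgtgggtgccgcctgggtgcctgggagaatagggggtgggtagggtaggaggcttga

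Nanog counts in the let-7 cells ran from 0 to 1807, with a median of 37.02. In the 27 Nanog-high cells, the normalized Nanog count had a lowest value of 10.1, a median of 276 and a highest value of 1388, with a mean of 380.0 ± 354 (SD). In the 18 Nanog-low cells it ran from 0 to 10.4 with a median of 1.95. The gap at the limit was narrow. The counts just below it were 5.84, 9.40 and 9.59, and those just above were 12.1, 12.8, 16.5, 31.7, 37.02 and 38.3. These values chose the groups and are given as a description. Few cells of the other conditions fell below the limit. The share below 10 was 40% of let-7 cells (18 of 45, exact 95% binomial interval 25.7 to 55.7%) and 5.0% of mock-transfected Dgcr8-/- cells (3 of 60, 1.04 to 13.9%). It was 0 of 57 miR-294 cells, which allows a share of up to 6.27%, and 0 of 16 wild-type cells, which allows up to 20.6%. The lowest Nanog count of a miR-294 cell was 132 and that of a wild-type cell was 102. With a limit of 50 counts the let-7 share was 53.3% and the Dgcr8-/- share 6.67%. With a limit of 1 count the let-7 share was 4.44%, so that 16 of the 18 Nanog-low cells held at least 1 Nanog count.

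**Figure D1:**
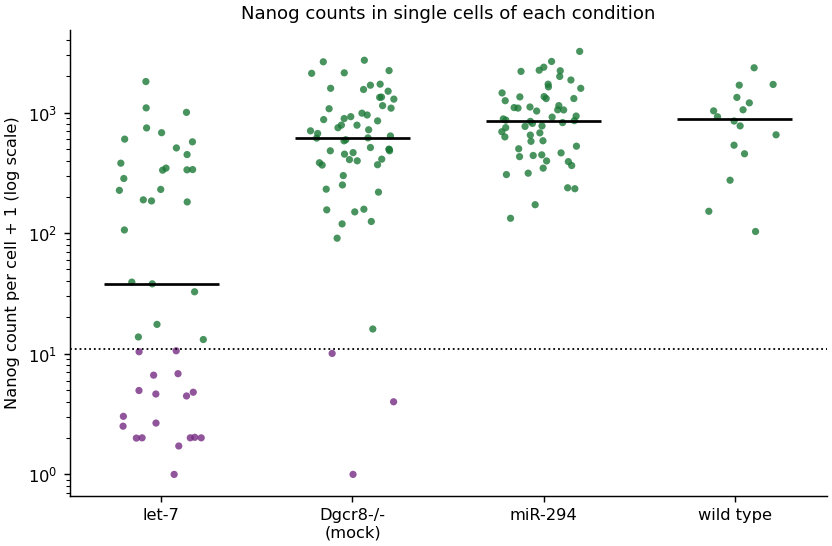
Nanog count plus 1 in each cell, on a log scale, in the 4 conditions. Points are cells, black lines are medians, and the dotted line is the limit of 10 counts; purple points (18 of 45 let-7 cells and 3 of 60 Dgcr8-/- cells) lie below it.

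Total counts per let-7 cell ran from 808429 to 3979310. The median total was 1528870 in Nanog-high and 1516949 in Nanog-low cells, so the groups were sequenced to like depth. The number of genes detected, with a count of at least 1, differed. Its median was 8369 (6673 to 10114) in Nanog-high cells, 7719.5 (6084 to 8884) in Nanog-low cells and 7732.5 in Dgcr8-/- cells. The median share of counts from mitochondrially encoded mRNAs was 2.99% in Nanog-high and 2.80% in Nanog-low cells. Cell 41, a Nanog-high cell, had a pair of runs that differed as much as runs of different cells (r = 0.488 on the log2 scale, against 0.956 to 0.987 in 48 other pairs of runs of 1 cell). Its part in each count is given with the processing alternatives.

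Over 11184 genes other than Nanog, a gene was called where the mean normalized count differed at least 2-fold and the mean of log2(normalized count + 1) differed by at least 1 in the same direction. By this rule of size 822 genes (7.35%) were higher and 386 (3.45%) were lower in Nanog-high cells. The median gene differed by 0.22 on the log2 scale, beside the larger number of genes detected in these cells. Taken relative to that median, 628 genes were higher and 603 lower. No gene separated the groups. The highest share of high-low cell pairs in which the Nanog-high cell had the higher value, called AUC below, was 0.831 (Tufm), and the lowest was 0.156 (Safb2). Counts of listed genes are therefore read against 7.35% and 3.45%, and genes are given with their spread over cells.

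The core factors Pou5f1 and Sox2, and Sall4, were detected in most Nanog-low cells. None of the 3 core factors passed the size rule, although all had a higher mean log2 value in Nanog-high cells. Pou5f1 had a normalized count of 266 ± 138 (SD, n = 27) in Nanog-high and 186 ± 147 (n = 18) in Nanog-low cells, with medians of 248 and 144. It was detected in 27 of 27 and 17 of 18 cells, and the ranges of the groups overlapped (23.7 to 649 and 0 to 499). Sox2 averaged 40.4 ± 55.1 and 28.98 ± 49.2 and was detected in 26 and 15 cells. Sall4, a zinc-finger factor that binds with Oct4, averaged 210.4 ± 184 and 206 ± 296, but it was detected in 27 of 27 Nanog-high cells and in 14 of 18 Nanog-low cells. Sall4 stood far below the Dgcr8-/- mean of 1103 ± 522 in both groups. The level of the 3 factors, as the mean of log2(normalized count + 1), was 6.33 ± 0.99 in Nanog-high, 5.15 ± 1.48 in Nanog-low and 7.73 ± 1.03 in Dgcr8-/- cells. Fewer transcripts per cell and a lower capture of RNA from a cell cannot be told apart in these counts.

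Among 12 naive pluripotency factors compared, 1 was higher and 1 was lower by the size rule. Tfcp2l1, a factor of the naive network downstream of LIF, had a mean of 1333 ± 1129 in Nanog-high and 624 ± 983 in Nanog-low cells (2.14-fold). Its medians were 1008 and 353 and its AUC was 0.823. Without cell 90, a Nanog-high cell at 5407, the Tfcp2l1 means differed 1.88-fold and the call was lost, and over all cells left out in turn the fold ran from 1.88 to 3.30. Klf5, a Krüppel-like factor of the same network, went the other way, with 84.2 ± 83.6 in Nanog-high and 173 ± 169.5 in Nanog-low cells. Its fold of 2.06 lay at the limit, and the call held in 34 of the 45 comparisons that left out 1 cell, with folds of 1.77 to 2.27. Esrrb, a target of GSK3 inhibition, had medians of 120.0 and 28.8 but means of 149 ± 155 and 128 ± 231, since 1 Nanog-low cell held 880.7. Klf4 averaged 73.9 ± 86.0 and 114 ± 218, and Zfp42 (Rex1) averaged 1011 ± 805 and 709.5 ± 694. The level of the 12 factors, as the mean of log2(normalized count + 1), was 4.72 ± 1.03 in Nanog-high and 4.13 ± 1.15 in Nanog-low cells, a difference of 0.59 that was smaller than either SD. It was 5.31 ± 0.76 in Dgcr8-/- cells. Of 12 Nanog partner proteins and co-regulators, such as Hdac1, Chd4 and Zfp281, none passed the size rule, and their median difference was 0.29.

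Nodal, Fgf4, Lefty2 and Tdh, which encode 3 secreted signals and 1 metabolic enzyme, were higher in Nanog-high cells. Of 24 other pluripotency-associated genes, 4 (16.7%) were higher, against 7.35% of all genes, and 0 were lower. The mean log2 value was higher in Nanog-high cells for 18 of the 24. Phc1 went the other way, with means of 188 in Nanog-high and 453 in Nanog-low cells. Its log2 difference of -0.95 fell just short of the rule. Nodal (chr10:61417972-61425338), the TGF-beta family ligand of the early embryo, was detected in 21 of 27 Nanog-high cells and in 6 of 18 Nanog-low cells. Its normalized count ran from 0 to 336 with a median of 49.7 in Nanog-high cells and from 0 to 144 with a median of 0 in Nanog-low cells. The means were 76.2 ± 91.5 and 11.5 ± 34.2, with an AUC of 0.792, and 1 cell held 69.1% of the Nanog-low sum. Fgf4, the growth factor that drives ERK signalling in ESCs, was detected in 16 of 27 and 4 of 18 cells, with means of 82.4 ± 117 and 16.3 ± 55.96, and 1 cell held 81.1% of the Nanog-low sum. Lefty2, a Nodal antagonist, averaged 179 ± 558 and 10.96 ± 29.03, but 1 Nanog-high cell held 55.8% of its sum and the AUC was 0.601. Tdh, the threonine dehydrogenase on which mouse ESCs depend, was detected in every let-7 cell and had medians of 449 and 75.5. In both groups Tdh was below its Dgcr8-/- mean of 1059 ± 641. Tdgf1 (Cripto), the Nodal co-receptor, did not pass the rule because its means differed 1.66-fold (1006 ± 688 and 608 ± 878). Its medians were further apart, 913 and 206, and its log2 difference was 2.80. Gdf3, another ligand of this family, had medians of 429 and 309.7 and did not pass either. Tdgf1 and Phc1 were chosen after their values were seen. The level of the whole list was 6.12 ± 0.54 in Nanog-high and 5.39 ± 0.43 in Nanog-low cells, an AUC of 0.87. The same level was 6.67 ± 0.84 in Dgcr8-/- cells.

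**Figure D2:**
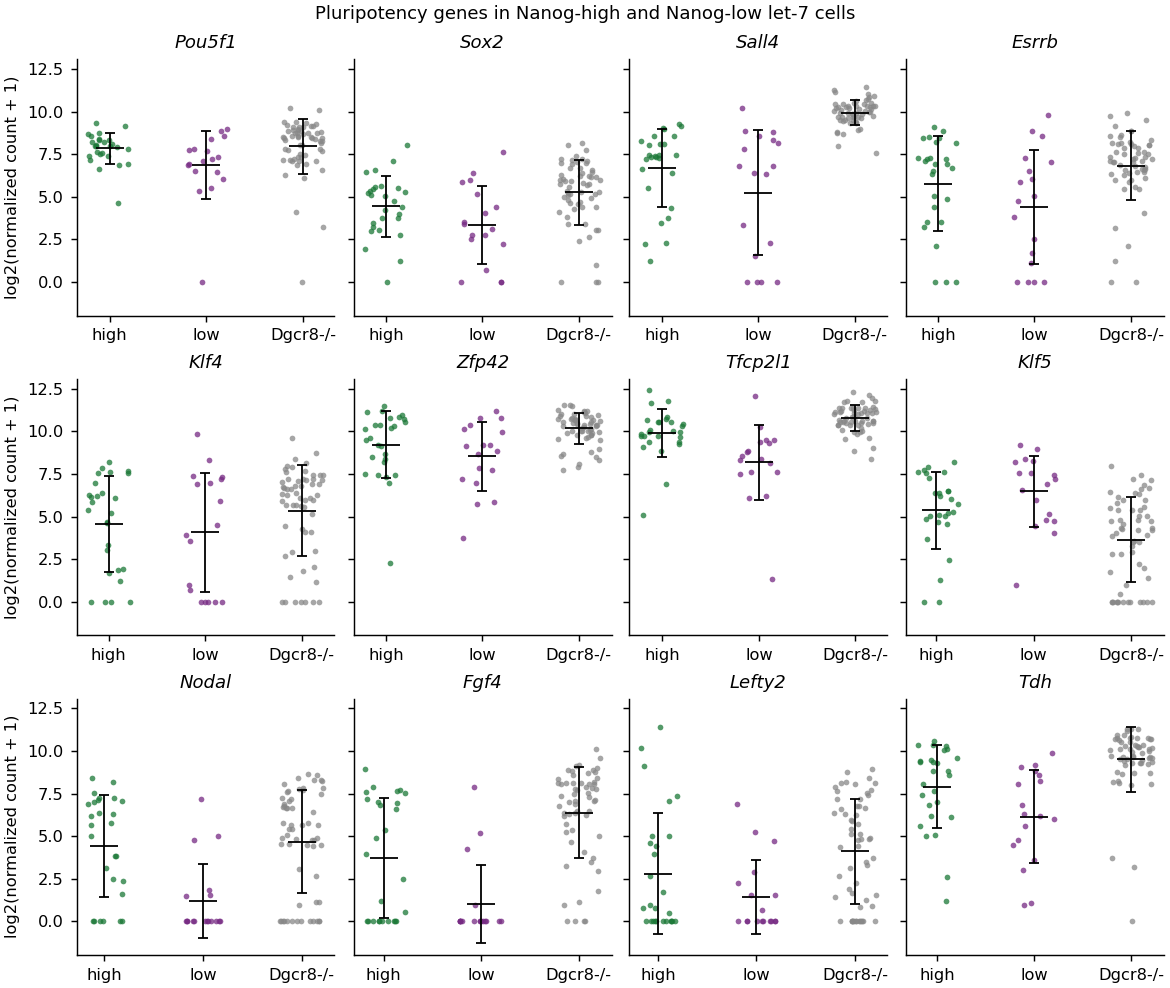
log2(normalized count + 1) of 12 pluripotency genes in the 27 Nanog-high cells (green), 18 Nanog-low cells (purple) and 60 Dgcr8-/- cells (gray). Points are cells and bars are means with the SD; the groups overlap for every gene, with Nodal detected in 21 of 27 Nanog-high and 6 of 18 Nanog-low cells.

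Most Nanog-low cells were predicted to be in G1. The phase was predicted with cyclone, which compares the order of gene pairs within a cell, and none of its 28492 pairs contained Nanog. Of the Nanog-low cells, 16 of 18 (88.9%, exact 95% interval 65.3 to 98.6%) were predicted in G1, 1 in S and 1 in G2/M. Of the Nanog-high cells, 12 of 27 (44.4%, 25.5 to 64.7%) were predicted in G1, 8 in S and 7 in G2/M. In mock-transfected Dgcr8-/- cells the G1 share was 40% (24 of 60). The median G1 score was 0.973 in Nanog-low and 0.785 in Nanog-high cells. Of 36 cell cycle genes listed by the study, 9 (25%) were higher in Nanog-high cells, against 7.35% of all genes, and 0 were lower. The calls lay mostly among genes of late phases. Of 12 G2/M genes 6 were higher, of 4 G2 genes 2, of 6 S genes 1 and of 13 G1/S genes none, with median differences of 1.59, 1.39, 1.06 and 0.28. With a limit of 50 Nanog counts, 4 of the 36 genes were called higher, against 4.94% of all genes at that limit. Ccnb1 (0.72), Bub1b (0.81), Ccna2 (0.98), Cdc25b (0.58) and Ccnb2 (-0.17) then had log2 differences below 1, and the difference in the level of the 36 genes was 0.36. Ccnb1 (cyclin B1), which drives entry into mitosis, had a median of 196 and a mean of 478 ± 610 in Nanog-high cells, and a median of 6.21 and a mean of 121 ± 230 in Nanog-low cells. The ranges overlapped, from 0 to 2132 and from 0 to 814. Ccnf (cyclin F) was detected in 16 of 27 and 5 of 18 cells. Cenpa, the histone variant of centromeres, was detected in 16 and 5 cells, and Cdkn2d, the CDK4 and CDK6 inhibitor p19, in 17 and 3. Ccnb2, Ccna2, Bub1b and Cdc25b, all of G2 or mitosis, had folds of 2.24 to 3.28. For Ccna2, 1 Nanog-high cell (cell 75) held 47.4% of the sum, and without it the fold was 1.69 and the call was lost. Brca1, which acts in repair during S phase, had means of 200.2 ± 329.6 and 38.3 ± 73.3. The level of the 36 genes was 4.86 ± 1.40 in Nanog-high, 3.90 ± 1.08 in Nanog-low and 5.53 ± 1.08 in Dgcr8-/- cells. The difference of 0.96 was smaller than the SD over cells in any group.

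**Figure D3:**
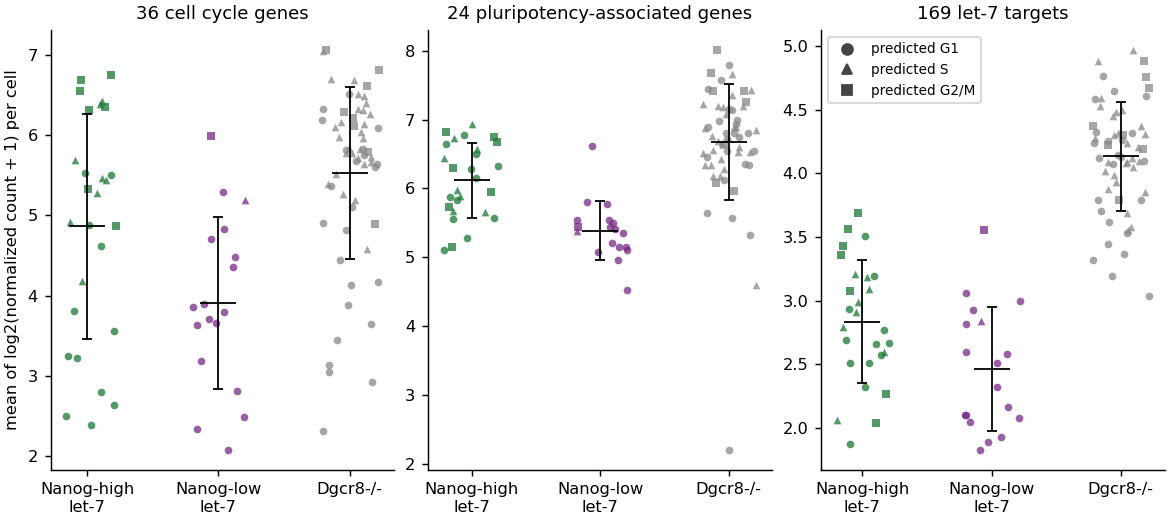
Mean of log2(normalized count + 1) per cell over 36 cell cycle genes, 24 pluripotency-associated genes and the compared let-7 targets, in Nanog-high and Nanog-low let-7 cells and in Dgcr8-/- cells. Points are cells, shapes give the predicted phase, and bars are means with the SD; the pluripotency list has means of 6.12 and 5.39 in Nanog-high and Nanog-low cells.

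Cells of the same predicted phase were then set side by side. Among the cells predicted in G1, 12 Nanog-high and 16 Nanog-low, the difference in the cell cycle level was 0.03, and it was 0.96 over all let-7 cells. The choice of G1 cells itself uses cell cycle genes. Ccna2, Ccnb1, Ccnb2, Bub1b and Cdc25b had a lower mean log2 value in the Nanog-high G1 cells, with differences of -0.13 to -0.90. Mean normalized counts were lower there for Ccna2, Ccnb1 and Cdc25b. For Ccnb2 (111 and 108) and Bub1b (80.05 and 69.2) they were higher in Nanog-high than in Nanog-low G1 cells. The other 4 called cycle genes still had a higher mean log2 value in the Nanog-high G1 cells. Their differences were 2.60 for Brca1, 1.42 for Cdkn2d, 1.10 for Ccnf and 0.32 for Cenpa. Of the 36 genes, 6 were higher and 4 lower in G1 cells, where 10.3% of all genes were higher and 6.2% lower. Nodal was detected in 10 of 12 Nanog-high and 5 of 16 Nanog-low G1 cells, with means of 109 and 4.01 and a log2 difference of 4.05, beside 3.21 over all cells. Tdgf1 differed by 2.90, Tdh by 1.80, Fgf4 by 1.59 and Tfcp2l1 by 1.40. The level of the 24 pluripotency-associated genes was 5.99 ± 0.54 and 5.38 ± 0.46 in the G1 cells, a difference of 0.61 beside 0.73 over all cells.

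**Figure D4:**
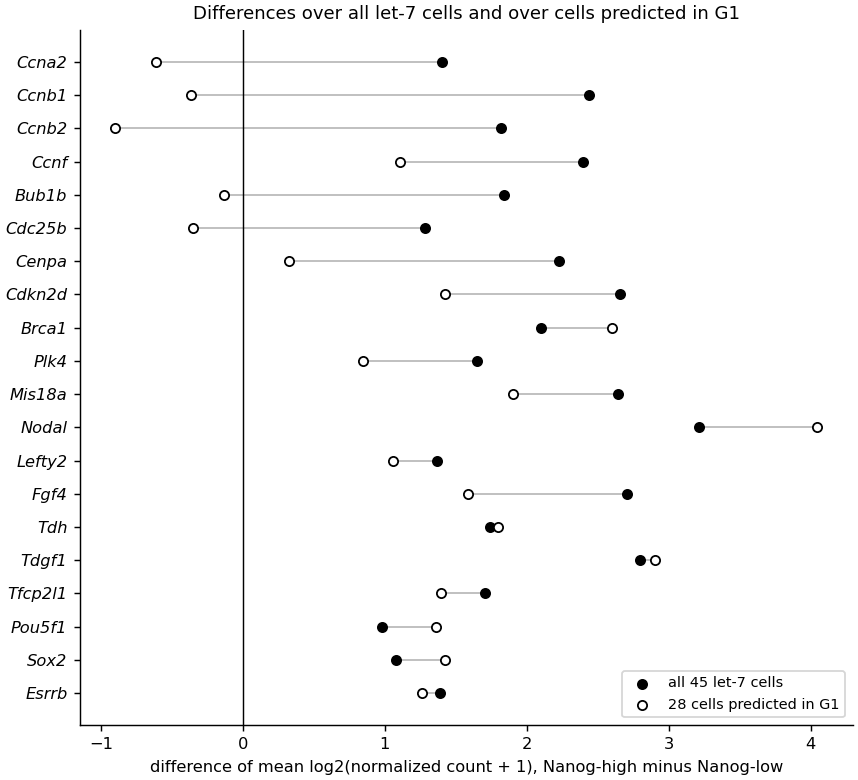
Difference of the mean log2(normalized count + 1), Nanog-high minus Nanog-low, of 20 named genes over all 45 let-7 cells (filled) and over the 28 cells predicted in G1 (open). 5 cyclin and mitosis genes cross 0, Brca1, Cdkn2d, Ccnf and Cenpa stay above it, and Nodal has 3.21 over all cells and 4.05 in G1.

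The share of let-7 targets called was close to that of all genes. The targets were those the study lists from earlier arrays. Of the compared targets, 15 (8.88%) were higher and 6 were lower in Nanog-high cells, with a median difference of 0.32 beside 0.22 for all genes. Their level was 2.83 ± 0.48 in Nanog-high cells, 2.46 ± 0.49 in Nanog-low cells and 4.13 ± 0.43 in Dgcr8-/- cells. The step from either let-7 group to Dgcr8-/- cells was thus larger than the 0.37 between them, though cells had been kept for low targets. Within G1 the difference was 0.31. Of 11 oncofetal targets, such as Lin28a, Hmga2 and Igf2bp1, none passed the rule, and their levels were 2.48 ± 0.80 and 2.34 ± 1.00, against 4.37 ± 0.69 in Dgcr8-/- cells. Of 492 targets of miR-294, which these cells lack, 56 (11.4%) were higher and 20 (4.07%) lower, beside 7.35% and 3.45% of all genes. The share higher was thus further from that of all genes than it was for let-7 targets. The median difference of the miR-294 targets was 0.33. Seed matches were found in the UTRs of 13.4% of the genes called higher and of 10.99% of those called lower, beside 12.1% of all.

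Beyond the lists, genes were named by their size of difference. By the fixed rule, the 12 called genes with the largest difference relative to the spread of cells were taken in each direction. Among the higher genes, Kdm3b, a histone demethylase, ran from 1.13 to 354 with a median of 97.9 in Nanog-high cells, and from 0 to 153 with a median of 6.08 in Nanog-low cells. Ggta1, a galactosyltransferase of the Golgi, was detected in 17 of 27 Nanog-high cells and in 1 of 18 Nanog-low cells, at 22.5 in the median Nanog-high cell. Golph3, a Golgi protein, was detected in 23 and 5 cells. Tufm, the mitochondrial elongation factor, had medians of 332 in Nanog-high and 22.7 in Nanog-low cells, beside 306 in Dgcr8-/- cells. Mis18a, which prepares centromeres for new Cenpa, was detected in 17 and 2 cells, and Plk4, the kinase of centriole duplication, had medians of 38.9 and 14.5. The others were Nodal, Mpzl1, Nav1, Hs6st1 (heparan sulfate sulfation), Get4 (insertion of tail-anchored proteins) and Tmc6, which was detected in 15 and 1 cells.

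Among the lower genes, Safb2, a nuclear matrix and RNA-binding protein, was detected in all 18 Nanog-low cells and in 18 of 27 Nanog-high cells, with medians of 57.6 and 3.21. Ptgs2 (cyclooxygenase-2), the inducible enzyme of prostaglandin synthesis, was detected in 12 of 18 Nanog-low and 3 of 27 Nanog-high cells. Ptgs2 was found in 7 of 60 Dgcr8-/- cells. Its Nanog-low values ran from 0 to 658 with a median of 7.81, and 1 cell held 56.02% of the sum. Resf1, a partner of Setdb1 in silencing retroelements, was detected in every let-7 cell, with 1112 ± 561 in Nanog-high, 2383 ± 1467 in Nanog-low and 800.6 ± 530.1 in Dgcr8-/- cells. Sesn3, a stress-responsive sestrin, was detected in 13 of 18 and 8 of 27 cells. The remaining genes were the transcription factors Tef and Mef2a, the inositol kinase Ip6k2, the mitochondrial carrier Slc25a44, the corepressor Mier3, Zfp383, Ccdc92 and 4921524J17Rik, with folds of 2.82 to 14.3. Single cells set part of this range. Leaving out 1 cell at a time gave folds of 8.90 to 24.3 for Ccdc92, 6.56 to 23.6 for Tef and 9.62 to 18.8 for Ip6k2. Without cell 44 the fold of Slc25a44 was 1.96 and its call was lost, and the call of Resf1 held in 40 of the 45 comparisons.

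In the Nodal and BMP list, 2 of 9 genes (22.2%, against 7.35% of all genes) were higher, Nodal and Lefty2, which are also in the pluripotency list. The level of the list was 5.42 ± 0.97 in Nanog-high, 4.40 ± 1.201 in Nanog-low and 4.81 ± 1.09 in Dgcr8-/- cells, a difference of 1.01 between the let-7 groups with an AUC of 0.745. Its other members included Smad7, an inhibitor of the pathway, detected in 22 of 27 and 9 of 18 cells, which did not pass the rule and was chosen after its values were seen. In the Wnt list 1 of 8 was higher, Tcf7l1, a repressor of Wnt targets, detected in 21 of 27 and 9 of 18 cells with means of 26.7 ± 34.8 and 10.4 ± 17.2. The Wnt list had levels of 4.70 ± 0.80 and 3.96 ± 0.81, with a difference of 0.75 and an AUC of 0.755. In the FGF-ERK list 1 of 10 was called, Fgf4 again, and in the Myc family 1 of 10, the Myc antagonist Mnt (25.6 ± 38.1 and 10.6 ± 24.1), whose fold was 1.89 without cell 53. None of 6 LIF-STAT3 genes, 8 DNA methylation enzymes, 11 p53 target genes, 8 housekeeping genes, 2 ferritin subunits, 85 cytosolic ribosomal protein genes or 13 mitochondrial mRNAs passed the rule. The housekeeping level was itself 0.42 higher in Nanog-high cells (12.23 ± 0.37 and 11.81 ± 0.74).

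Lineage lists gave 1 gene higher and 2 lower, where 7.35% of all genes were higher and 3.45% lower. With 2 to 8 genes compared in each list, these calls do not set the lists apart from those shares. Members of the lists ranged from undetected to detected in every cell. None of 6 primitive endoderm genes compared was called, and Gata6, Sox17, Foxa2 and Dab2 had no count of at least 1 in any let-7 cell. Gata4, of the same list, was detected in 5 of 27 Nanog-high and 1 of 18 Nanog-low cells, with means of 1.24 and 25.3. Sparc and Lamc1, genes of the extracellular matrix and basement membrane in the same list, were detected in all 45 let-7 cells, with means of 2905 and 2246 for Sparc and 377 and 476 for Lamc1 in Nanog-high and Nanog-low cells. In the mesoderm and endoderm list, 1 of 2 compared was higher, Eomes, detected in 11 of 27 Nanog-high and 3 of 18 Nanog-low cells, with 94.5% of the Nanog-low sum in 1 cell. None of 2 neuroectoderm genes was called. Grhl2, 1 of these 2, was detected in 9 of 27 Nanog-high and 1 of 18 Nanog-low cells, with means of 3.17 and 66.9. Pax6, a neural factor below the filter on low counts, was detected in 14 of 27 and 2 of 18 cells. Of 8 formative genes 1 was lower, Otx2, detected in 5 Nanog-low and 2 Nanog-high cells, with 61.7% of the Nanog-low sum in 1 cell. Of 6 trophectoderm genes 1 was lower, the keratin Krt18, detected in 7 and 3 cells, and 1 Nanog-low cell held 71.95% of the Nanog-low sum, without which the fold was 1.89 and the call was lost. Its partner keratin Krt8 was detected in 24 and 13 cells, with means of 194 and 261, and Elf5, a trophoblast factor, in 23 and 17 cells, with means of 4.49 and 5.62. Of 10 fibroblast markers, 5 were at 0 in every let-7 cell and none of the 2 compared was called. Fn1 (fibronectin) was detected in all 45 let-7 cells, with means of 944 and 1074.

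Zscan4 genes, which mark the transient two-cell-like state of ESCs, were carried by a pair of Nanog-low cells. Zscan4b, Zscan4c and Zscan4d were 3 of 7 two-cell-like genes called lower in Nanog-high cells. Their summed normalized count with the other family members was 44371 in cell 66 and 24828 in cell 20, both predicted in G1, with Nanog counts of 0.72 and 1.01. The next value in a let-7 cell was 304, in a Nanog-high cell. The Zscan4 genes are near-identical copies, so that the split of reads among them is uncertain. Without these 2 cells none of the 7 genes was called, and their median difference was 0.20.

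Of the genes next to Nanog, 1 was called, as higher, beside 7.35% of all genes. So few genes were compared that 1 call does not set them apart from that share. Within 250000 bases of the Nanog start, Gdf3, Dppa3, Slc2a3, Apobec1, Necap1, Rimklb and Mfap5 were compared and did not pass the rule. Slc2a3, a glucose transporter, averaged 304 ± 311 and 296 ± 457. Foxj2, a forkhead factor, was the exception. It was detected in 12 of 27 and 5 of 18 cells, with means of 35.3 ± 70.3 and 5.81 ± 14.2, and its log2 difference was just below 1 (0.99) without cell 74 or cell 90.

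The same limit left 3 of 60 mock-transfected Dgcr8-/- cells below it, and their values are given beside those of the let-7 cells. Their normalized Pou5f1 counts were 0, 92.96 and 8.22, against a Dgcr8-/- median of 346. Their Esrrb counts were 3.30, 0 and 1.37, against a median of 143, and their Sox2 counts were 0, 5.26 and 0. Klf4, Sall4 and Zfp42 were not near 0 on average. Mean Klf4 counts were 105.4 in these 3 cells and 104.8 in the 57 other Dgcr8-/- cells. The same means were 892 and 1114 for Sall4, and 851 and 1381 for Zfp42. Of the 18 Nanog-low let-7 cells, 1 had a Pou5f1 count of 0 and the next lowest value was 39.2.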

How the data were processed

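The data were RNA-seq runs of single mouse ESCs captured on a Fluidigm C1 system, 232 runs of 182 wells. For each run the authors deposited the RSEM 1.2.19 expected count of each gene (Gencode M4, GRCm38) and its FPKM. The deposited FPKM values were not used. For each cell the expected counts were added over its runs and left unrounded, and near-identical wells were averaged (chi-square per gene no larger than the largest, 6.25, between concordant runs of 1 cell). Counts were divided by DESeq size factors from 857 genes counted in every cell, after the study's methods. The 182 wells set the gene filter, an average of 5 counts or more (11185 genes passed, Nanog included). Totals per let-7 cell were 808429 to 3979310, and genes near a count of 1 are resolved least well. Symbols came from a reference table (41674 of 42493 gene IDs), positions and UTRs from Gencode M21, and promoters and miRNAs from RefSeq; 8408 of the compared genes had a promoter. UTRs were the bases after the annotated stop codon in the transcript with the most of them.

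The labels name no separate cultures, so cells were not treated as replicates and no test was made. Genes were called by size, with a pseudocount of 1, a 2-fold ratio of means and a log2 difference of 1. Named genes were the 12 per direction with the largest standardized difference among called genes with a mean of at least 20, the called members of the gene lists with 6 fixed pluripotency genes, and genes within 250000 bases of Nanog. The members and lists were chosen with earlier results of these data known. Phases were predicted with cyclone (scran 1.30.0, R 4.3.3), and the rest was computed in Python 3.11.15 (numpy 2.4.6, pandas 2.3.3, scipy 1.17.1). TMM factors of edgeR 4.0.16 were an alternative. The comparison was run on simulated counts with known changes. Their recovery was required only at a set, low spread between cells, so it does not vouch for the size rule at the spread of these cells. Other limits on Nanog, normalizations, filters, pseudocounts, thinned counts and left-out cells were tried as alternatives.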

Additional observations from a re-analysis of the deposited data

How the results depend on the processing

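No paired analysis was possible because the let-7 cells come from 1 sample and cell numbers do not link cells across conditions. Leaving out 1 cell at a time gave 798 to 942 genes higher, 367 to 459 lower, and differences of 0.85 to 1.08 for the cell cycle level, 0.33 to 0.43 for the let-7 target level and 0.47 to 0.72 for the naive factor level. Except where stated, the settings that follow moved at least 1 of these counts of genes by over 1.5 times. Their counts are given as higher and lower. A Nanog limit of 1 count gave 3478 and 1432, with 2 Nanog-low cells left. Leaving out cells with 1 to 99 Nanog counts gave 3537 and 1527, again with 2 Nanog-low cells. A pseudocount of 10 gave 266 and 135. Cells predicted in G1 alone gave 1148 and 693, of which the lower count moved by over 1.5 times. The following alternatives were chosen after seeing the data. Without cells numbered 8 to 25, which left 9 Nanog-low cells, 1487 and 773 genes were called, and relative to the median gene 628 and 603. Without cell 41 the counts were 806 and 419, and without cells 20 and 66 they were 898 and 433, all within 1.5 times. Thinning to the lowest total was not among the alternatives chosen after seeing the data. Thinned counts gave 648 and 290, also within 1.5 times. The differences in the cell cycle, let-7 target and naive factor levels had the same sign under each setting and moved by less than the SD over cells, but their sizes were not stable. The cell cycle difference was 0.03 in G1 cells and 0.36 with a limit of 50 counts. The let-7 target difference was 0.14 with a pseudocount of 10, 0.18 with a limit of 50 counts and 0.15 relative to the median gene. The naive factor difference ran from 0.35 with a pseudocount of 10 to 1.27 with cells of 1 to 99 counts left out. The let-7 share below the limit was 4.44% with a limit of 1 count.

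Of 47 named genes with a call, 25 had the same call with a limit of 1 count, 28 with a limit of 50 counts, 35 with a pseudocount of 10, 35 in G1 cells, 36 with cells of 1 to 99 counts left out, and 41 to 47 under the other settings. When 1 cell was left out, 36 had the call whichever cell it was, and 11 lost it for at least 1 cell. The fold moved by over 1.5 times for 31 of the 47. Of 799 values, 21 turned in sign. With a limit of 1 count these were Mnt (-0.88), Klf5 (2.11), Otx2 (0.94), Tdh (-0.77), Eomes (-2.28), Fgf4 (-1.37) and Foxj2 (-0.065). With 1 to 99 counts left out they were Mnt (-0.22), Klf5 (1.79), Otx2 (0.40), Eomes (-1.45) and Fgf4 (-0.086), and with a limit of 50 counts Ccnb2 (-0.17). In G1 cells they were Cdc25b (-0.35), Ccna2 (-0.61), Ccnb2 (-0.90), Bub1b (-0.13) and Ccnb1 (-0.37). Without cells 20 and 66 they were Zscan4c (0.37), Zscan4d (0.20) and Zscan4b (0.14). The cause was not tested for the limits on Nanog, each of which forms other groups of cells. Depth limits the comparison for genes with few counts, where detection in a cell can turn on a single molecule.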

Other observations

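The Nanog-low cells were not spread evenly over the well numbers, whose meaning is not given in the sources used here. Of the let-7 wells as labelled, 0 of 6 with numbers 1 to 6 were Nanog-low, 10 of 11 with numbers 8 to 25, and 10 of 31 with numbers 28 to 92. These stretches were drawn after the values were seen. The near-identical wells had neighbouring numbers, 10 and 11, 70 and 71, and 82 and 83, and both wells of each pair fell on the same side of the limit. Without cells numbered 8 to 25, the differences in level were 1.06 for cell cycle genes, 0.42 for naive factors and 0.45 for let-7 targets. The part of the well number in the results was not tested.

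Nanog-low cell 44 stood apart from the other Nanog-low cells. Its normalized Pou5f1 and Sall4 counts were 0, its Tdgf1 count was 2.32, and its Krt18 count was 1899, the highest of any let-7 cell. Tfcp2l1, of the naive network, went the other way. Its count in cell 44 was 4378, the highest of the Nanog-low cells, whose median was 353. A Dgcr8-/- cell with a Nanog count of 0 had a Pou5f1 count of 0 and a Krt18 count of 7576. Both were chosen after their values were seen.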
